A study of Drosophila melanogaster with 30 samples.

Results

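The mitochondrial ribosomal protein genes of Drosophila melanogaster, named mRpS for the small and mRpL for the large subunit, were followed across knockdowns of the Myb-MuvB/dREAM complex and of its E2F partners in cultured cells. Members were all genes whose symbol in the probe annotation begins with mRpS or mRpL and that have a probe set assigned to a single gene. There were 64 such genes, 21 named mRpS and 43 named mRpL, among 10844 genes with a single-gene probe set. Each gene was read by its probe set with the highest mean over the 30 arrays. A probe set was tested where it lay above the median of its own array on at least 3 arrays, which left 7794 probe sets and 63 of the 64 members. The gene that was not tested is mRpL41, with a mean of 5.38 and a range of 5.04 to 5.83 over the 30 arrays.

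The mitochondrial ribosome translates the few messages that the mitochondrial genome encodes, which in animals are subunits of the respiratory chain and of ATP synthase. Its ribosomal RNAs come from the mitochondrial genome, whereas its proteins are all encoded in the nucleus, translated in the cytosol and imported. Some of these proteins have bacterial counterparts, and others are found only in mitochondrial ribosomes. The dREAM complex joins an E2F2 and RBF repressor module to the MuvB proteins Mip40, Mip120, Mip130 and Lin-52 and to Myb, and L(3)MBT is a chromatin protein that associates with it. E2F1 is the activator E2F of the fly.

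RNA was taken from Kc cells, a hemocyte-like embryonic line with a tetraploid female karyotype, after 4 days of RNAi and was hybridised to single-colour Affymetrix arrays. The knockdown groups were Mip40, Mip120, Mip130, Lin-52, Myb, E2F2, RBFs (RBF1 and RBF2 depleted together), L(3)MBT and E2F1. The control group received a nonspecific RNA derived from the pBSK+ plasmid. Each of the 10 groups had 3 arrays, and the labels do not say whether these came from separate cultures, so that the p-values measure the spread between these samples, which may be technical. Values are signals read as log2 from their range, a difference is the knockdown mean minus the control mean on that scale, and precision is limited by having 3 arrays a group.

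The targeted transcripts could be read in 8 of the 9 knockdowns, in which 8 tested targets lay at 19.3% (E2f2) to 78.1% (l(3)mbt) of control. Rbf was not tested (4.87 in the RBFs arrays and 4.92 in control arrays), and Myb had no single-gene probe set. Of 11 hemocyte markers 8 were tested, with control means of 11.27 for Hml, 10.95 for Ppn and 9.96 for Pxn. The control means of NimC1 (3.45), Sr-CI (3.38), crq (4.78) and eater (5.41) lay within the range of 23 control probe sets without a fly target (3.15 to 6.22). Of these, eater was among the 8 tested. Markers of other cell types were detected too: 1 of 3 for neurons (brp at 7.52 in control arrays, elav at 3.99), 1 of 2 for muscle (Mlc2 at 7.41), 3 of 3 for fat body (7.38 to 7.65) and 2 of 2 for germ line (6.74 and 8.20) were tested. The L(3)MBT arrays stood apart in their 18S rRNA control probe sets, which averaged 9.09 ± 0.15 there and 4.83 ± 0.34 in control arrays (SD, n = 3 each), and the medians of these arrays (6.45 to 6.48) lay below those of the control arrays (6.55 to 6.57). The E2F1 arrays had the lowest hybridization spikes, at 8.73 ± 0.09 against 9.51 ± 0.15 in control arrays (SD, n = 3 each).

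The members were mostly of middle to high signal, and their means over the 30 arrays had a median of 8.10, against 7.45 for all tested probe sets. The highest means were those of mRpS16 (9.40), mRpS11 (9.34) and mRpL45 (9.04). The lowest after mRpL41 were mRpL32 (6.77) and mRpS22 (6.84). Probe sets differ in how brightly they hybridise, so these means do not rank the transcripts. The standard deviation within groups ranged from 0.05 to 0.16 over the members, and the standard error of a difference between groups from 0.0506 to 0.116 over the tested members.

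The mean of the 63 tested members on each array separated the groups as follows. The E2F1 arrays had 7.80, 7.88 and 7.82, below each of the other 27 arrays. The L(3)MBT arrays had 8.35, 8.29 and 8.41, and the arrays of the Mip40, Mip120, Mip130, Lin-52, E2F2 and RBFs knockdowns lay between 7.99 and 8.12. The Myb arrays had 8.31, 8.33 and 8.02, and the control arrays 8.27, 8.25 and 8.11. Replicate 3 was therefore low in both of these groups. It was the lowest of the Myb arrays for 62 of 63 members and the lowest of the control arrays for 59 of 63 members. Each comparison with control below uses the same 3 control arrays, and results are also given without the arrays that stood apart.

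**Figure D1:**
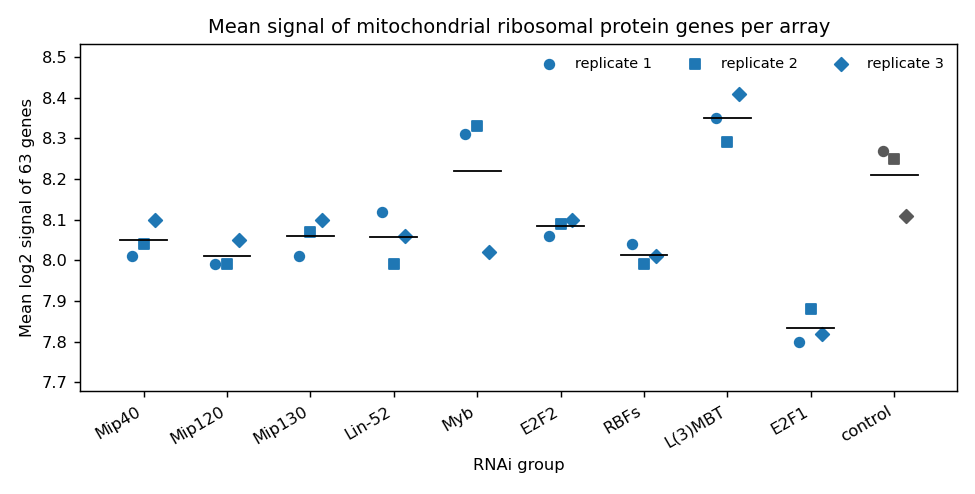
Mean log2 signal of the 63 tested mitochondrial ribosomal protein genes (vertical axis) on each of the 30 arrays, by RNAi group (horizontal axis), with the symbol giving the replicate number and the line the group mean. The 3 E2F1 arrays (7.80 to 7.88) lie below all others, and replicate 3 is low in the Myb (8.02) and control (8.11) groups.

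After E2F1 knockdown most of the family was lower. By limma's moderated test with Benjamini-Hochberg adjustment over all tested probe sets, at a threshold of 0.05, 52 of 63 members fell (82.5%) and 1 rose, where 31.3% of all tested probe sets fell and 22.9% rose. The median difference was -0.39 over the members and -0.05 over all tested probe sets, and 59 of the 63 differences were below 0. A fall of 0.5 or more was seen for 16 members. By symbol, falls were called for 16 of 21 members named mRpS and 36 of 42 named mRpL.

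The members with the largest falls after E2F1 depletion sit in different places of the ribosome. mRpL44, a large-subunit protein with a ribonuclease III-like fold, had 7.41, 7.62 and 7.52 in E2F1 arrays, against 8.54, 8.33 and 8.30 in control arrays. The groups did not overlap, and the level in E2F1 arrays was 54.7% of control (difference -0.87 ± 0.0998 SE, adjusted p = 1.02e-08). mRpS18A, which carries a small-subunit name but in mammals lies in the large subunit, had 7.33, 7.45 and 7.45 in E2F1 arrays, against 8.41, 8.29 and 8.08 in control arrays. All 3 E2F1 arrays were again below all control arrays, with a level of 55.5% of control (difference -0.85 ± 0.0823 SE, adjusted p = 3.21e-10). mRpL20, whose bacterial counterpart binds ribosomal RNA early in large-subunit assembly, had 7.40, 7.54 and 7.51 in E2F1 arrays, against 8.39, 8.44 and 8.13 in control arrays. Its level was 56.0% of control without overlap (difference -0.84 ± 0.0792 SE, adjusted p = 1.98e-10).

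mRpL45, which in human cells lies near the tunnel exit where the ribosome meets the inner membrane, was among the most precisely measured. It had 8.47, 8.44 and 8.53 in E2F1 arrays, against 9.24, 9.27 and 9.14 in control arrays. This fall of 0.74 had the smallest adjusted p of any member in this comparison (1.92e-11). mRpS26, found only in mitochondrial ribosomes, fell to 59.0% of control, and mRpL1, whose bacterial counterpart forms the L1 stalk beside the exit site for tRNA, fell to 62.8%.

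A single member rose after E2F1 knockdown. mRpL33, a small protein of the large subunit with a bacterial counterpart, had 8.11, 8.33 and 8.18 in E2F1 arrays, against 7.90, 7.84 and 7.52 in control arrays. The groups did not overlap (difference 0.45 ± 0.095 SE, adjusted p = 0.000155). The 10 members with no call were mRpL3, mRpL4, mRpL13, mRpL24, mRpL28, mRpS2, mRpS6, mRpS9, mRpS18B and mRpS30. Among them mRpS6 differed by 0.07, mRpS9 by 0.03 and mRpL28 by -0.01. Leaving out single arrays of E2F1 or control left 45 to 56 members called in either direction. With a control array left out, 28.3% to 29.1% of all tested probe sets fell and 21.3% to 21.7% rose. After quantile normalization 51 members fell and 1 rose, where 30.4% of all tested probe sets fell and 23.2% rose. The part of the lower spike signal in this result was not tested.

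**Figure D2:**
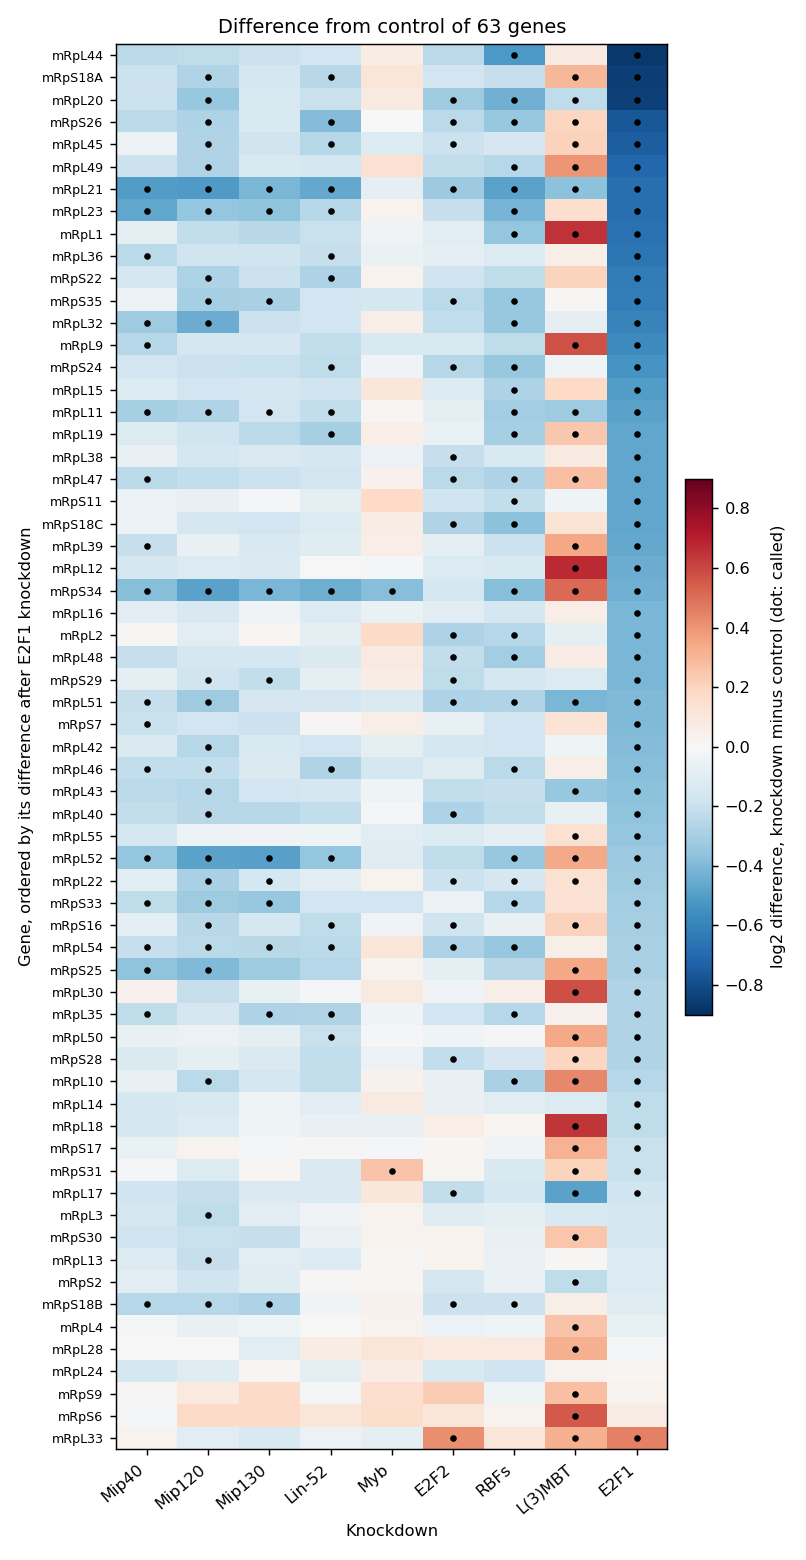
Log2 difference from control (colour, blue lower and red higher in the knockdown) of each of the 63 tested genes (rows, ordered by the difference after E2F1 knockdown) in the 9 knockdowns (columns), with a dot where the adjusted p was under 0.05. The E2F1 column holds 53 dots, 52 of them for lower genes, and mRpL33 in the bottom row is the member that rose.

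The knockdowns of the MuvB proteins gave smaller falls and no called rise. In Mip120 arrays 28 of 63 members fell (44.4%), where 10.5% of all tested probe sets fell and 8.67% rose. In Mip40 arrays 18 fell (28.6%), against a background of 8.92% lower and 6.99% higher. In Lin-52 arrays 17 fell (27.0%), against 10.7% lower and 8.74% higher. In Mip130 arrays 12 fell (19.0%), against 5.98% lower and 5.02% higher. The median difference of the members was -0.21 for Mip120, -0.16 for Mip40, -0.16 for Lin-52 and -0.15 for Mip130, where all tested probe sets had medians between -0.01 and 0.0. Between 57 (Lin-52) and 60 (Mip120) of the 63 differences were below 0. At an unadjusted p under 0.05, 1 member was higher in Mip120 arrays, 1 in Mip130 arrays and 0 in Mip40 and Lin-52 arrays.

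These counts rested strongly on the control arrays. Without control replicate 3 the members called were 38 for Mip120, 26 for Mip40, 23 for Lin-52 and 25 for Mip130. Without control replicate 1 they were 14, 5, 9 and 8 for these knockdowns in the same order, and without control replicate 2 they were 14, 5, 10 and 7. Of all tested probe sets 12.8%, 11.8%, 12.2% and 9.44% were lower without control replicate 3. These shares were 6.88%, 5.41%, 6.86% and 3.49% without control replicate 1, and 6.86%, 5.71%, 7.78% and 3.61% without control replicate 2. For Mip40 the 5 of 63 members were thus near the background in both of these fits. Leaving out Mip120 replicate 1 or 2 gave 18 each, Mip40 replicate 1 or 2 gave 6 and 7, and Lin-52 replicate 2 gave 7. The shares of all tested probe sets without these knockdown arrays are not given here, so these counts have no background beside them. The medians stayed below 0 in each of these fits. With each array centred on its own median, 11 members were called lower in Mip40 arrays, where 7.74% of all tested probe sets were lower.

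mRpL21, a large-subunit protein with a bacterial counterpart, and mRpS34, a small-subunit protein specific to mitochondria that human cells need for a stable small subunit, were among the largest falls in all 4 MuvB knockdowns. mRpL21 had 8.47, 8.62 and 8.55 in Mip40 arrays, 8.49, 8.56 and 8.57 in Mip120 arrays, 8.49, 8.68 and 8.75 in Mip130 arrays and 8.56, 8.53 and 8.68 in Lin-52 arrays, against 9.17, 9.05 and 8.92 in control arrays. All 12 knockdown arrays were below all control arrays. The differences were -0.50, -0.51, -0.41 and -0.46 in that order, with adjusted p between 0.000136 and 0.00221. mRpS34 had 7.70, 7.66 and 7.72 in Mip40 arrays, 7.52, 7.53 and 7.71 in Mip120 arrays, 7.62, 7.58 and 7.78 in Mip130 arrays and 7.72, 7.56 and 7.61 in Lin-52 arrays, against 8.03, 8.27 and 7.91 in control arrays. Again no knockdown array reached the lowest control array, and the differences were -0.38, -0.48, -0.41 and -0.44.

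Further members completed the largest falls of these knockdowns. mRpL23, whose bacterial counterpart lines the exit of the peptide tunnel, had 8.41, 8.50 and 8.57 in Mip40 arrays, against 9.03, 9.01 and 8.84 in control arrays (difference -0.47 ± 0.0843 SE, adjusted p = 0.000144). mRpL52, a protein of the mitochondrial large subunit, had 7.22, 7.19 and 7.14 in Mip130 arrays, against 7.71, 7.83 and 7.49 in control arrays (difference -0.49 ± 0.109 SE, adjusted p = 0.00202). mRpS26 had 7.37, 7.18 and 7.30 in Lin-52 arrays, against 7.79, 7.70 and 7.53 in control arrays (difference -0.39 ± 0.0862 SE, adjusted p = 0.00148). In each of these the knockdown arrays lay below the control arrays without overlap.

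E2F2 and RBFs, the repressor module of the complex, were set against control in the same way. In RBFs arrays 28 of 63 members fell (44.4%) and 0 rose, where 11.9% of all tested probe sets fell and 11.5% rose, and the median was -0.21 against 0.0 for all. Before adjustment 43 were lower and 0 higher in RBFs arrays at a p under 0.05. In E2F2 arrays 20 fell (31.7%) and 1 rose, where 9.12% of all tested probe sets fell and 16.4% rose, and the median was -0.16 against -0.01 for all. For RBFs the count was 18 without control replicate 1 and 40 without control replicate 3. For E2F2 the count in either direction was 8 without E2F2 replicate 1, 11 without E2F2 replicate 3, 8 without control replicate 1 and 12 without control replicate 2. Without control replicates 1 and 2, 7 and 10 of these E2F2 calls were falls, where 6.4% and 6.98% of all tested probe sets fell. The counts without an E2F2 array have no background beside them. For E2F2 the scaling also mattered, with 35 lower after quantile normalization and 10 lower after median centring. Of all tested probe sets 13.8% and 5.45% were lower under these scalings.

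mRpL44 had the largest fall in RBFs arrays, with 7.88, 7.80 and 7.91, against 8.54, 8.33 and 8.30 in control arrays (69.6% of control, difference -0.52 ± 0.0998 SE, adjusted p = 0.000213). In E2F2 arrays the same gene had 8.17, 8.10 and 8.16, which lay below the control arrays but did not pass the test (difference -0.24, adjusted p = 0.0704). mRpL20 had 7.85, 7.86 and 7.95 in RBFs arrays and 7.92, 7.99 and 8.08 in E2F2 arrays, against 8.39, 8.44 and 8.13 in control arrays. It fell in both (differences -0.43 and -0.32). mRpL21 fell by 0.48 in RBFs and by 0.33 in E2F2 arrays, and its E2F2 call was lost without E2F2 replicate 1 or control replicate 1. mRpL40, a mitochondria-specific large-subunit protein, had 7.38, 7.44 and 7.34 in E2F2 arrays, against 7.77, 7.65 and 7.58 in control arrays (difference -0.28, adjusted p = 0.0192), and lost its call without E2F2 replicate 1, E2F2 replicate 3 or control replicate 1. mRpL33, the member that rose after E2F1 knockdown, was also the member that rose after E2F2 knockdown, with 8.13, 8.21 and 8.17 (difference 0.42 ± 0.095 SE, adjusted p = 0.00174). In RBFs arrays it had 7.88, 7.91 and 7.81, which overlapped the control arrays (difference 0.11, adjusted p = 0.48).

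After Myb knockdown nearly no member was called. In Myb arrays 1 member rose and 1 fell of 63 (1.59% each), where 2.36% of all tested probe sets rose and 3.43% fell. The median was 0.03, against 0.01 for all tested probe sets, with 27 differences below 0 and 36 above. At an unadjusted p under 0.05, 4 members were higher and 3 lower. mRpS34 was the one that fell, with 7.74, 7.89 and 7.43 in Myb arrays, against 8.03, 8.27 and 7.91 in control arrays (difference -0.38 ± 0.0855 SE, adjusted p = 0.00337). mRpS31, a mitochondria-specific small-subunit protein, rose, with 8.81, 8.78 and 8.69 in Myb arrays, against 8.60, 8.57 and 8.35 in control arrays (difference 0.26 ± 0.0783 SE, adjusted p = 0.0485). Neither gene overlapped between the groups. Deviations of same-numbered Myb and control arrays correlated in all 3 pairs (0.21, 0.40 and 0.58), although not every array correlated best with its own number, and the labels do not state a pairing. With replicate as a block the rise of mRpS31 had an adjusted p of 0.06 and the fall of mRpS34 one of 0.0053. The call of mRpS34 was lost without Myb replicate 3 or control replicate 2, and that of mRpS31 without Myb replicate 1 or 2 or control replicate 2 or 3.

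The Myb result depended on the arrays of replicate 3. Without Myb replicate 3 the median was 0.12, with 6 members higher and 0 lower, where 2.62% of all tested probe sets were higher and 2.87% lower. Without control replicate 3 it was -0.02, with 0 higher and 1 lower. Without Myb replicate 1 the count in either direction was 1, and without control replicate 2 it was 0. Of all tested probe sets 1.8% were higher and 3.61% lower without control replicate 3. These shares were 1.91% and 2.49% without control replicate 2, and are not given here without Myb replicate 1.

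**Figure D3:**
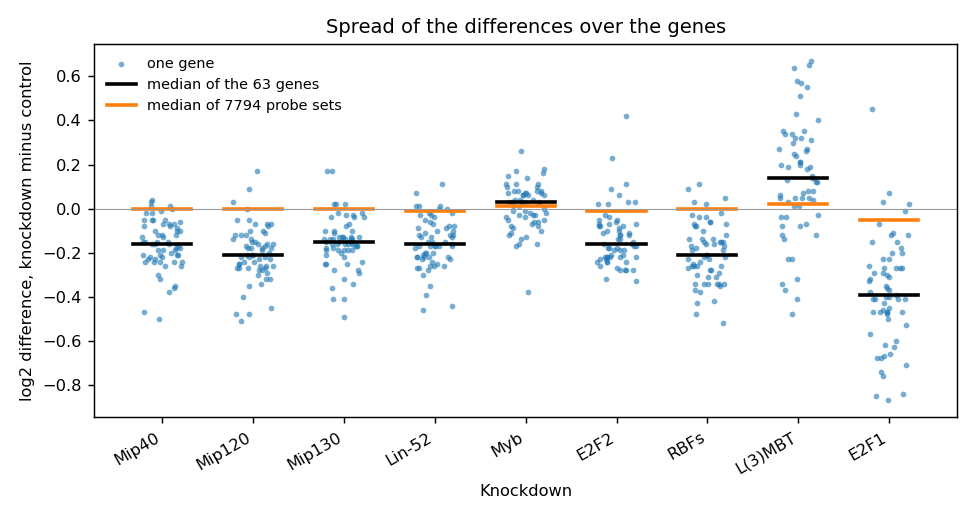
Log2 difference from control (vertical axis) of each of the 63 tested genes (points, spread sideways for visibility) in the 9 knockdowns, with the median of the genes (black) and of all 7794 tested probe sets (orange). The gene median lies at -0.39 for E2F1, at 0.14 for L(3)MBT, at 0.03 for Myb and between -0.21 and -0.15 in the other 6 knockdowns.

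The L(3)MBT arrays had the highest group mean of the family on the deposited scale (8.35), but whether the members moved more than other genes depended on the scaling. In L(3)MBT arrays 29 of 63 members rose (46.0%) and 7 fell (11.1%), where 38.9% of all tested probe sets rose and 34.6% fell. The median was 0.14 against 0.02 for all. After quantile normalization 17 rose and 17 fell, where 30.8% of all tested probe sets rose and 37.4% fell. The medians were then -0.05 for the members and -0.04 for all. With each array centred on its own median 37 rose and 5 fell, where 47.0% of all tested probe sets rose and 25.0% fell. The medians were then 0.24 for the members and 0.12 for all. Without control replicate 3 the rises were 19 of 63, where 35.3% of all tested probe sets rose, so the members' share was not above the background. The 18S rRNA signal was raised on all 3 of these arrays, and its part in the result was not tested.

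The largest rises in L(3)MBT arrays were those of mRpL12, mRpL1 and mRpL18. mRpL1 had 8.30, 8.20 and 8.50 in L(3)MBT arrays, against 7.77, 7.66 and 7.61 in control arrays (156.9% of control, difference 0.65 ± 0.087 SE, adjusted p = 1.44e-07). mRpL18, whose bacterial counterpart binds 5S rRNA, had 8.71, 8.71 and 8.67 in L(3)MBT arrays, against 8.05, 8.25 and 7.88 in control arrays (difference 0.64 ± 0.0897 SE, adjusted p = 3.48e-07). Neither overlapped with control, and after quantile normalization the differences were 0.51 and 0.44, both called.

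mRpL12 forms the stalk that recruits translation factors, and it had 9.43, 9.36 and 9.63 in L(3)MBT arrays, against 8.84, 8.79 and 8.78 in control arrays (difference 0.67 ± 0.0697 SE, adjusted p = 1.46e-09). Its second, dimmer probe set (mean 7.18) went the other way in L(3)MBT arrays (difference -0.44, adjusted p = 2.84e-06) and showed -0.05 in E2F1 arrays, against -0.45 for the first. The direction of mRpL12 in L(3)MBT arrays is thus uncertain. mRpL11, which lies at the base of the same stalk, is the only other member with a second probe set. Its brighter probe set fell in 7 knockdowns, by 0.17 in Mip130 to 0.48 in E2F1 arrays. The dimmer one (mean 6.68) fell in L(3)MBT arrays (difference -0.83, against -0.32 for the first) and was within -0.15 to 0.04 in the other 8 knockdowns. In E2F1 arrays neither dimmer probe set was called by the same moderated test (adjusted p = 0.601 for mRpL12 and 0.851 for mRpL11). The E2F1 falls of these 2 members thus rest on the brighter probe sets alone.

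The largest falls in L(3)MBT arrays were those of mRpL17 and mRpL51. mRpL17, with a bacterial counterpart, had 7.01, 7.19 and 7.09 in L(3)MBT arrays, against 7.66, 7.68 and 7.40 in control arrays (difference -0.48 ± 0.0769 SE, adjusted p = 2.72e-06). mRpL51, found only in mitochondrial ribosomes, had 8.27, 8.19 and 8.31 in L(3)MBT arrays, against 8.71, 8.68 and 8.61 in control arrays (difference -0.41 ± 0.0674 SE, adjusted p = 3.89e-06). Both were below control on every array and kept their fall after quantile normalization. mRpL21 was the next largest fall (-0.37). mRpS34, lower in 7 knockdowns, was higher here, with 8.64, 8.49 and 8.61 in L(3)MBT arrays (difference 0.51 ± 0.0855 SE, adjusted p = 5.27e-06).

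**Figure D4:**
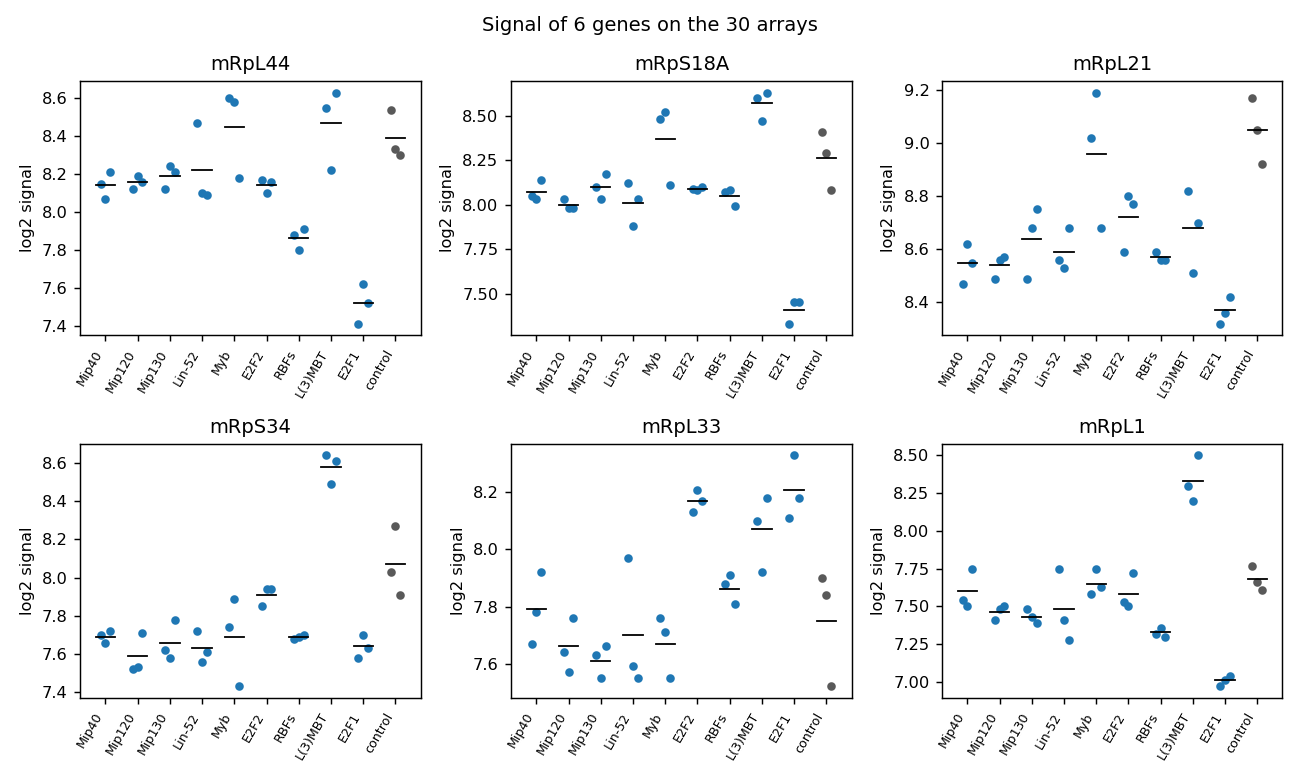
Log2 signal (vertical axes, each on its own range) of 6 genes on the 30 arrays, by RNAi group with control at the right, points for arrays and lines for group means. mRpL44 and mRpS18A are lowest in E2F1 arrays, mRpL21 is called lower than control in 8 groups, mRpS34 and mRpL1 are highest in L(3)MBT arrays, and mRpL33 has its highest group means in E2F2 and E2F1 arrays.

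The difference between 2 knockdowns is taken without the control arrays, which enter only the shared estimate of the spread. E2F1 arrays were lower than E2F2 arrays for 38 of 63 members (60.3%) and higher for 0, where 31.2% of all tested probe sets were lower and 21.8% higher, and the median was -0.23 against -0.03 for all. Before adjustment 1 member was higher at a p under 0.05. mRpS18A had 7.33, 7.45 and 7.45 in E2F1 arrays, against 8.09, 8.08 and 8.10 in E2F2 arrays (difference -0.68 ± 0.0823 SE, adjusted p = 3.59e-08). mRpL44 differed by -0.63, also without overlap.

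L(3)MBT arrays were higher than Mip120 arrays for 47 members (74.6%) and lower for 1, where 40.7% of all tested probe sets were higher and 35.0% lower. After quantile normalization 32 were higher and 7 lower, where 32.3% of all tested probe sets were higher and 37.6% lower. The largest difference was that of mRpS34, with 8.64, 8.49 and 8.61 in L(3)MBT arrays and 7.52, 7.53 and 7.71 in Mip120 arrays (0.99 ± 0.0855 SE, adjusted p = 3.32e-11). The next was mRpL1 (0.87), and the member that was lower was mRpL17 (-0.27).

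Myb arrays were higher than Mip130 arrays for 20 members (31.7%) and lower for 0, where 6.74% of all tested probe sets were higher and 5.71% lower. Before adjustment 34 were higher and 0 lower at a p under 0.05. mRpL23 had 9.06, 9.16 and 8.74 in Myb arrays, against 8.56, 8.60 and 8.64 in Mip130 arrays (difference 0.39 ± 0.0843 SE, adjusted p = 0.00138), with no overlap. mRpL52 had 7.68, 7.87 and 7.13 in Myb arrays, against 7.22, 7.19 and 7.14 in Mip130 arrays (difference 0.38 ± 0.109 SE, adjusted p = 0.0177), where Myb replicate 3 lay below all Mip130 arrays. The count was 43 without Myb replicate 3, 5 and 6 without Myb replicates 1 and 2, and 10, 12 and 13 without Mip130 replicates 1, 2 and 3. Without Myb replicate 3, 11.7% of all tested probe sets were higher and 6.42% lower. The counts with another array left out have no background beside them. mRpL52 lost its call without Myb replicate 1 or 2 or Mip130 replicate 3.

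The remaining pairs differed little. RBFs arrays were lower than E2F2 arrays for 7 members (11.1%) and higher for 0, where 15.4% of all tested probe sets were lower and 9.49% higher, so that the members' share was near or below the background. With p-values left unadjusted 11 were lower and 0 higher at 0.05. mRpL33 (-0.31) and mRpL44 (-0.28) were the largest of the 7, and the count was 1 to 4 when any one of the 6 arrays was left out. After quantile normalization 3 were higher and 6 lower, where 12.6% of all tested probe sets were higher and 12.6% lower. Lin-52 arrays were higher than Mip40 arrays for 2 members, mRpS18B (0.23) and mRpS7 (0.21), and lower for mRpL45 (-0.22), where 7.13% of all tested probe sets were higher and 5.98% lower. This count was 6 without Lin-52 replicate 1, 1 without Lin-52 replicate 2 or 3 or Mip40 replicate 2, and 0 without Mip40 replicate 3. For both of these pairs the counts with an array left out have no background beside them. Between Mip120 and Mip130 arrays 0 members were called, by limma with all 30 arrays, where 1.33% of all tested probe sets were higher and 1.01% lower. At an unadjusted p under 0.05, 0 were higher and 4 lower, and the median was -0.04.

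**Figure D5:**
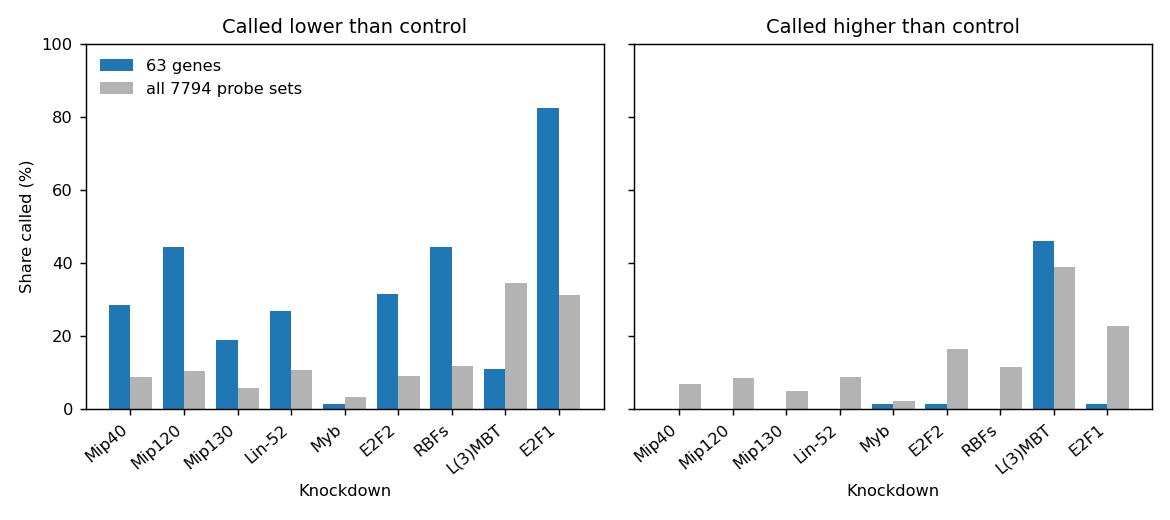
Share called lower (left) and higher (right) than control, in percent (vertical axes), of the 63 tested genes (blue) and of all 7794 tested probe sets (grey) in the 9 knockdowns. The genes' share of falls is above the grey bar in 7 knockdowns, from 19.0% against 5.98% for Mip130 to 82.5% against 31.3% for E2F1, and below it for Myb and L(3)MBT.

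Over the 9 knockdowns, mRpL21 fell in 8, with Myb as the exception (difference -0.09, adjusted p = 0.801). mRpL54, a mitochondria-specific large-subunit protein, fell in 7, from -0.21 in Mip40 to -0.34 in RBFs arrays, and was not called in Myb (0.11) or L(3)MBT arrays (0.05). mRpL52 fell in 6 and rose in L(3)MBT arrays (0.34). A moderated F test over the 10 groups called 63 of 63 members, where 93.9% of all tested probe sets were called, so the members' share was near the background. The largest F values among the members were those of mRpL12, mRpL45, mRpL1, mRpS18A and mRpS34.

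Members with the numbering of bacterial ribosomal proteins (36 tested) and members with higher numbers, mostly proteins added in mitochondria (27 tested), differed in how many fell in some knockdowns. In E2F1 arrays 26 of 36 and 26 of 27 fell, with medians of -0.31 and -0.40. In Mip120 arrays 12 and 16 fell, with medians of -0.18 and -0.24, and in E2F2 arrays 8 and 12 fell, with medians of -0.11 and -0.22. In RBFs arrays the counts were 15 and 13. They were 9 and 9 in Mip40, 6 and 6 in Mip130, 8 and 9 in Lin-52, 0 and 1 in Myb, and 5 and 2 in L(3)MBT arrays. Of all tested probe sets 31.3% fell in E2F1, 10.5% in Mip120, 9.12% in E2F2 and 11.9% in RBFs arrays. The shares were 8.92% in Mip40, 5.98% in Mip130, 10.7% in Lin-52, 3.43% in Myb and 34.6% in L(3)MBT arrays. These counts are descriptions without a test, and the number is an imperfect guide, since mRpS24 and mRpL55 have bacterial counterparts despite their higher numbers. The difference of a member did not track its signal, with a correlation across the 63 members between -0.20 and 0.22 in the 15 comparisons. Members share arrays and are not independent.

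bonsai encodes the mitochondrial S15 protein and tko the mitochondrial S12 protein, under names that the choice of symbols does not catch. bonsai fell in E2F1 arrays (difference -0.26, adjusted p = 0.00501) and rose in L(3)MBT arrays (0.25, adjusted p = 0.00416), and was not called in the other 7 knockdowns (-0.19 to 0.10). tko did not pass the filter (mean 5.93). A probe set shared by mRpS10 and CG34316, which cannot be assigned to either gene, was lower in E2F1 arrays (-0.65, adjusted p = 9.82e-09). It was also lower in Mip40 (-0.41), RBFs (-0.41), Mip120 (-0.38), Mip130 (-0.36), Lin-52 (-0.30) and E2F2 arrays (-0.26), and was not called in Myb (0.10) or L(3)MBT arrays (-0.08).

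Other genes of mitochondrial gene expression were given by lists, beside a background in E2F1 arrays of 31.3% of all tested probe sets lower and 22.9% higher, with a median of -0.05. Of 12 tested genes in the list named for translation factors and ribosome assembly, 5 fell (41.7%) and 0 rose in E2F1 arrays. Their median of -0.07 was close to that of all probe sets. The list was broader than its name and also held mTTF, mTerf5, bsf, rswl, scu and clu. The genes that fell included mTerf5 (-0.48) and mTerf3 (-0.27), members of the family of mitochondrial transcription termination factors. The signal of mTerf3 was near background, with means of 6.06 in E2F1 and 6.33 in control arrays. Control probe sets without a fly target reached 6.22. mEFTu1, the factor that delivers aminoacyl-tRNA to the mitochondrial ribosome, fell in Mip40 (-0.40), Mip120 (-0.40) and E2F1 arrays (-0.15) and rose in Lin-52 (0.34) and E2F2 arrays (0.17). Of 11 tested mitochondrial tRNA synthetase and amidotransferase genes, 4 fell (36.4%) and 3 rose (27.3%) in E2F1 arrays, both near the background. GatA, a subunit of the enzyme that makes glutaminyl-tRNA, rose in Mip40 (0.69), Mip120 (0.62), Mip130 (0.70) and Myb arrays (0.45).

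Of 7 tested genes of mitochondrial DNA maintenance and transcription, 5 fell (71.4%) and 1 rose in E2F1 arrays (median -0.25). Among those that fell were mtSSB, which coats single-stranded mitochondrial DNA (-0.73), and PolG1, the catalytic subunit of the mitochondrial DNA polymerase (-0.69). Of 13 tested import and chaperone genes 7 fell (53.8%) and 1 rose in E2F1 arrays (median -0.21), with Tom40, the outer membrane import channel, at -0.47. Of 5 tested regulators 2 fell and 1 rose in E2F1 arrays (median 0.01). Dref, which binds the DNA replication-related element of growth genes, fell (-0.70), as did Ets97D (-0.41), while Mnt, an antagonist of Myc, rose (0.57). In L(3)MBT arrays mTerf3, which flies need for mitochondrial ribosome assembly, had 7.35, 7.34 and 7.56, against 6.37, 6.35 and 6.25 in control arrays. It lay above the array median only on the L(3)MBT arrays. It thus passed the filter only through the group where it was high, and its difference of 1.09 is given as a description without a test.

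Cytosolic ribosomal protein genes and complex I subunit genes gave values for comparison. In E2F1 arrays 6 of 34 tested cytosolic ribosomal protein genes fell and 10 rose (median 0.01), and 14 of 27 tested complex I genes fell and 1 rose (median -0.17), beside 52 falls and 1 rise of 63 (median -0.39) among the mitochondrial ribosomal protein genes. Of all tested probe sets 31.3% fell and 22.9% rose in E2F1 arrays. In RBFs arrays the falls were 4 of 34 and 12 of 27, beside 28 of 63 and 11.9% of all tested probe sets. In Mip120 arrays they were 7 of 34 and 6 of 27, beside 28 of 63 and 10.5% of all tested probe sets. In L(3)MBT arrays 24 of 34 cytosolic ribosomal protein genes rose (median 0.23) and 23 of 27 complex I genes rose (median 0.40), beside 29 of 63 and 38.9% of all tested probe sets. These counts moved with the scaling of the arrays: quantile normalization, tried on these lists after seeing the data, called 13 of 34, 10 of 27 and 17 of 63 higher, and median centring 30 of 34, 24 of 27 and 37 of 63. Of all tested probe sets 30.8% were higher after quantile normalization and 47.0% after median centring. After quantile normalization the shares of rises in the 3 lists were thus not far from the background. The falls were then 8 of 34, 4 of 27 and 17 of 63, where 37.4% of all tested probe sets fell. The medians were 0.05, 0.10 and -0.05 in the same order, against -0.04 for all. In E2F1 arrays 7 of 34 cytosolic ribosomal protein genes rose and 8 fell after quantile normalization, where 23.2% of all tested probe sets rose and 30.4% fell. After median centring 12 rose and 4 fell, where 25.7% of all tested probe sets rose and 25.1% fell. The differences between these lists were not tested.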

How the data were processed

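Signals came from 30 arrays in 10 groups of 3. Values were deposited per probe set by the authors on what the range shows to be a log2 scale; GCOS 1.2.0 is named per the submitters' processing notes, and log base, summarization and normalization are not given in the sources used here. Probe sets were named from the deposited platform annotation. All 64 member symbols were found unchanged in a RefSeq gene table, which lists 73 mRp symbols; the other 9 were not analysed here as members. Members and lists were chosen with earlier results of these data known.

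All tested probe sets were fitted in limma 3.58.1 (R 4.3.3) as 10 group means with an intensity trend and 20 residual degrees of freedom, and p-values were Benjamini-Hochberg adjusted within each comparison. The steps were tested on simulated data. Named members were, per comparison, the called members with the largest differences, then those called most often, with the largest F, and the brightest and dimmest. Every same-numbered pair correlated above 0.1 in their deviations only for Myb and control (0.21, 0.40 and 0.58), a hint from the data, not the labels, and not every array correlated best with its own number. Alternatives were quantile normalization, median centring, no filter, no intensity trend, array weights, a replicate block, single pairs of groups, the dimmer probe set, and each array left out.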

Additional observations from a re-analysis of the deposited data

How the results depend on the processing

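Counts are members called in either direction, of 63. Leaving out 1 array at a time gave 5 to 26 for Mip40, 14 to 38 for Mip120, 7 to 25 for Mip130, 7 to 23 for Lin-52, 0 to 6 for Myb, 8 to 26 for E2F2, 18 to 40 for RBFs, 28 to 39 for L(3)MBT and 45 to 56 for E2F1 against control. It gave 5 to 43 for Myb against Mip130, 0 to 6 for Lin-52 against Mip40, 1 to 4 for RBFs against E2F2, 33 to 43 for E2F1 against E2F2, 45 to 52 for L(3)MBT against Mip120 and 0 throughout for Mip120 against Mip130. These ranges are given without the shares of all tested probe sets. The medians over members ranged from -0.42 to -0.35 for E2F1, from 0.09 to 0.17 for L(3)MBT and from -0.03 to 0.12 for Myb. They stayed below 0 for Mip40 (-0.22 to -0.13), Mip120 (-0.26 to -0.17), Mip130 (-0.20 to -0.11), Lin-52 (-0.21 to -0.12), E2F2 (-0.21 to -0.11) and RBFs (-0.25 to -0.16). Array weights raised the counts to 42 for Mip40, 53 for Mip120, 37 for Mip130, 39 for Lin-52, 6 for Myb, 40 for E2F2, 47 for RBFs, 9 for Mip120 against Mip130, 46 for Myb against Mip130, 6 for Lin-52 against Mip40 and 12 for RBFs against E2F2; the cause was not tested. The shares of all tested probe sets under array weights are not given here, so those counts have no background beside them. With only the 6 arrays compared, hence fewer degrees of freedom, the counts were 5 for Lin-52, 0 for Myb, 3 for Mip120 against Mip130, 7 for Myb against Mip130, 1 for Lin-52 against Mip40 and 14 for RBFs against E2F2. Of 7794 probe sets, in the same order, 303, 62, 323, 359, 370 and 1021 were higher, and 336, 138, 240, 375, 295 and 1650 lower. With a replicate block added to those 6 arrays, an alternative chosen after seeing the data, the members called were 9, 2, 3, 6, 0 and 14, given without a background. With a replicate block over all 30 arrays the count for Myb was 1, and this block moved no other count by over 1.5 times. Myb was also 1 without the filter or without the intensity trend, and 4 after quantile normalization. Quantile normalization gave 36 for E2F2 and a median of -0.05 for L(3)MBT, where median centring gave 0.24. A fit without the L(3)MBT and E2F1 arrays, also chosen after seeing the data, called 45 of 63 members in the F test. The share of all tested probe sets in that fit is not given here, so this count has no background beside it. Of 43 named differences 32 kept their call in every alternative and 10 lost it in some (46 of 588 values, 33 of them with an array left out). The remaining 1, mRpL12 in L(3)MBT arrays, changed sign to -0.44 (adjusted p = 2.84e-06) with its dimmer probe set; the cause was not tested. Signals near background limit mRpL41 and tko, and differences of about 0.2 lie near the threshold.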
